A study of Mus musculus with 8 samples.

Results

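The liver of the suckling mouse was compared with the mature liver, using the 2 samples labelled PN14 (postnatal day 14, P14) and the 2 labelled A3M (adult, 3 months), which are 4 of the 8 samples of a developmental series that also holds embryonic day 18 (E18) and P28. All 4 were untreated whole livers of the inbred strain FVB as the labels name it (FVB/NJ in the study's methods), without any transgene or knockout, and the labels give neither sex, litter, time of day nor the number of animals behind a sample. The methods name 3-month adult mice of this strain as male and give no sex for P14. Reads of poly(A)-selected RNA were counted on 22059 genes, of which 17081 had enough reads to be tested. Levels are given as counts per 1000000 reads (CPM) after TMM scaling, under which most genes are taken to keep their level. A gene was said to rise or fall from P14 to adult when edgeR's quasi-likelihood test gave a false discovery rate below 0.1 and the change was over 3-fold. The study calls its duplicates biological, but neither it nor the labels say how many animals a sample holds, and the p-values measure the spread between these samples.

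At P14 a mouse pup lives on milk, which is rich in fat and poor in starch, and its liver burns fatty acids, makes ketone bodies and glucose, and still grows. Blood formation, which fills the fetal liver, has by then mostly moved to bone marrow and spleen. Weaning on to a diet of carbohydrate follows about a week later, and puberty brings the pulsatile growth hormone secretion and sex steroids under which male and female livers come to express different genes.

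The P14 samples held 106055723 and 104340001 reads on genes and the adult samples 68154675 and 74810384. In the P14 samples 50% of the reads lay on 89 and 81 genes, and in the adult samples on 215 and 239. Duplicates lay close, with r of log2(RPKM + 1) over genes, which are no replicates, of 0.9971 at P14 and 0.9975 in adult. P14 replicate 2 stood apart in genes of the sex chromosomes. Xist, the RNA that coats the inactive X of female cells, was at 0.545 CPM in P14 replicate 1, 570 CPM in P14 replicate 2, and 0.756 and 0.648 CPM in adult. The Y-linked gene Ddx3y was at 54.2 and 5.75 CPM at P14 and at 54.6 and 63.3 CPM in adult, and Eif2s3y, Kdm5d and Uty were likewise about 10 times lower in P14 replicate 2 than in replicate 1. The same sample was higher in Dmbt1, a secreted mucin-like protein (0 and 63.3 CPM), in Acta1, skeletal muscle actin (0.0109 and 2.92 CPM), in Rn45s, the ribosomal RNA precursor (246 and 2195 CPM), and in Igf2 (582 and 2541 CPM). Of 8518 genes at 10 CPM or more, 15 differed over 3-fold between the P14 duplicates, and 6 of 8180 did so in adult. The falls called in Xist and Acta1 rest on P14 replicate 2, and Dmbt1, called lower in adult (log2 fold change -6.23), was called higher without that sample (8.24). Where a count of genes differs without P14 replicate 2, that count is given as well.

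**Figure D1:**
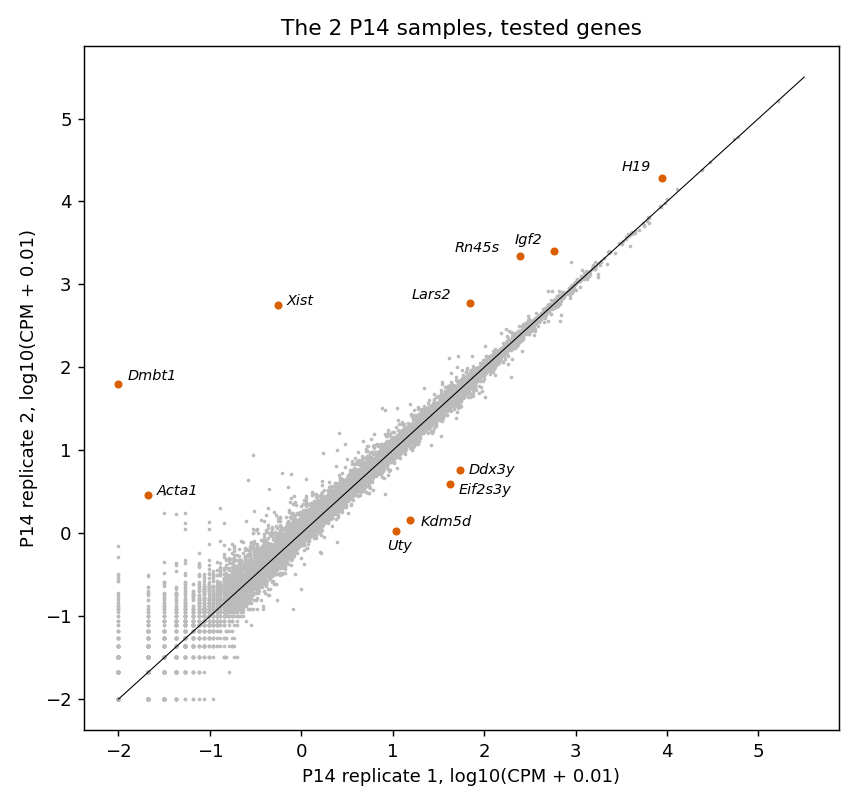
Levels of the tested genes in P14 replicate 1 (x axis) and P14 replicate 2 (y axis), both as log10(CPM + 0.01), with the line of equal levels and 11 genes marked. Xist, Dmbt1, Acta1, Rn45s, Lars2, Igf2 and H19 lay above the line, and the 4 Y-linked genes below it.

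The 8 hepatocyte markers Alb, Ttr, Apoa1, Serpina1a, Cps1, Hnf4a, Tat and Cyp2e1 were read in all 4 samples, and their summed level was 212424 and 211395 CPM at P14 and 108619 and 87820 CPM in adult. Most of that sum was albumin, the main protein of blood plasma, at 163456 and 163611 CPM at P14 and 65945 and 49661 CPM in adult. The fall of the sum was not shared by most markers. Of the 8, 1 rose (Tat) and 0 fell, and the median log2 fold change was 0.47. At the false discovery rate alone 4 were higher and 3 lower in adult. The adult samples lay below both P14 samples, and the change in Alb stayed just under the threshold, with a log2 fold change of -1.5 (standard error, SE, 0.19 and adjusted p = 0.00018 in edgeR). A sum of 27 erythroid genes was 18949 and 23919 CPM at E18, 793 and 782 CPM at P14 and 273 and 257 CPM in adult. Much of the P14 sum was Tfrc, the receptor of transferrin, whose levels are given below among the iron genes. Its log2 fold change was -4.16. Hbb-b1, an adult beta globin, was at 23 and 19.5 CPM at P14 and at 9.13 and 10.7 CPM in adult, against a mean of 2260 CPM at E18, and Hbb-b1 and Hbb-b2 share the same reads in these files. The erythroid sum therefore counts these reads under both genes. It may do so for Hba-a1 and Hba-a2 as well, which had the same log2 fold change (-1.36). In whole tissue a lower level can come from fewer cells of a type or from less RNA per cell, and these cannot be told apart here.

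More genes fell than rose. From P14 to adult 743 genes rose, which is 4.35% of those tested, and 1898 fell, which is 11.1%. In all 743 genes that rose and in 1883 of the 1898 that fell, both adult samples lay beyond both P14 samples, as they did above in 6587 (38.6%) and below in 6997 (41%) of all genes tested. At the false discovery rate alone 4955 genes (29.0%) were higher and 5489 (32.1%) lower in adult, so most differences were smaller than 3-fold. With 2 samples a stage, exact permutation could at best give p = 0.33, which is why the genes were tested by a model that shares its estimate of spread across genes and all 4 stages. With P14 replicate 2 left out, and the remaining sample assumed to vary like the other stages, 807 genes rose (4.60% of 17556) and 1601 fell (9.12%), and 679 and 1550 of them were among the 743 and 1898. The median log2 fold change over all tested genes was -0.03, the value against which the medians of the lists below can be read.

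**Figure D2:**
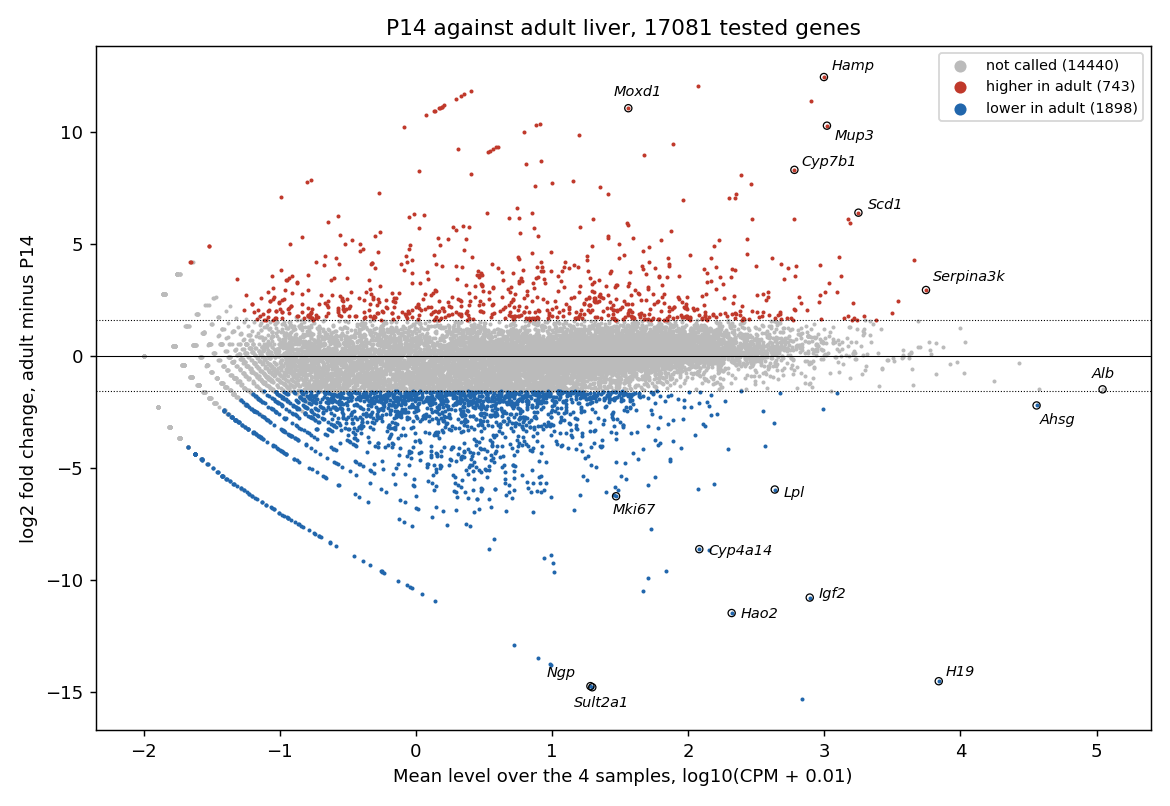
Log2 fold change from P14 to adult (y axis, adult minus P14) against the mean level over the 4 samples as log10(CPM + 0.01) (x axis) for the 17081 tested genes, with the 743 that rose in red, the 1898 that fell in blue and the 3-fold threshold dotted. The lines of points at the lower left are genes with 0 or few reads in adult, and 16 genes are named.

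The largest rise was in Hamp, which encodes hepcidin, the hormone that blocks iron export into blood. Hamp was at 0.393 and 0.325 CPM at P14 and at 2006 and 1968 CPM in adult, a log2 fold change of 12.43 (SE 0.21 and adjusted p = 8.8e-09 in edgeR). The other 9 of the 10 largest rises among genes at 10 CPM or more in adult were 5 major urinary proteins (Mup21, Mup2, Mup15, Mup3 and Mup7), Serpina4-ps1, Moxd1, Cyp4a12a and Hsd3b5. Mup3, a carrier of pheromones that the male liver secretes for the urine, was at 1.80 and 1.6 CPM at P14 and at 2128 and 2050 CPM in adult. Moxd1, a monooxygenase of the dopamine beta-hydroxylase family, had 1 and 5 reads at P14 against 1519 and 7905 reads in adult, a ratio of 2280 with an exact 95% counting interval of 1047 to 6214. The adult samples of Moxd1 differed from each other, at 26.1 and 119 CPM, yet both lay far above P14.

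Among genes at 10 CPM or more at P14 the 10 largest falls were in Mir675, H19, Mir483, Igf2, Hao2 and 5 more genes without a read in adult. H19, a maternally expressed imprinted RNA, was at 8757 and 18957 CPM at P14 and at 0.773 and 0.422 CPM in adult, a log2 fold change of -14.52 (SE 0.63 and adjusted p = 4.8e-07 in edgeR). Its neighbour Igf2, the fetal insulin-like growth factor, was at 582 and 2541 CPM at P14 and at 0.791 and 0.964 CPM in adult (-10.79, SE 0.79 and adjusted p = 7.1e-06 in edgeR). The P14 duplicates of both genes stood apart, but both adult samples were far below the lower of them. Mir675 and Mir483 lie inside H19 and Igf2 and share their reads. Sult2a1 and Sult2a5, sulfotransferases of steroids and bile acids, Ngp and Camp, granule proteins of neutrophils, and Pnliprp1, a pancreatic lipase-related protein, had 0 reads in both adult samples. Against a floor of 3 reads per library, Sult2a1 was at least 816-fold lower in adult, Ngp at least 790-fold, Camp at least 405-fold, Sult2a5 at least 327-fold and Pnliprp1 at least 218-fold. Hao2, a peroxisomal hydroxyacid oxidase, was at 404 and 430 CPM at P14 and at 0.172 and 0.120 CPM in adult.

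Among the genes past both thresholds the largest loss in reads, with no regard to gene length, was in Ahsg, which encodes fetuin-A, a carrier of calcium phosphate in plasma. Ahsg was at 59642 and 59800 CPM at P14 and at 13063 and 12491 CPM in adult, a log2 fold change of -2.22 (SE 0.24 and adjusted p = 7.6e-05 in edgeR). H19, Igf2, Mir675, Igfbp2, Agt (angiotensinogen), Lpl, Sparc, Col3a1 and D0H4S114 followed. Among the same genes the largest gain in reads was in Serpina3k, a secreted protease inhibitor, at 1225 and 1372 CPM at P14 and at 9723 and 10014 CPM in adult. It was followed by Car3 (carbonic anhydrase 3), Mgst1, Cat (catalase), Scd1, Pigr, Thrsp, Apoa5, Cyp2f2 and C9. Alb and Cyp2e1, which stayed under 3-fold, are not in this ranking.

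**Figure D3:**
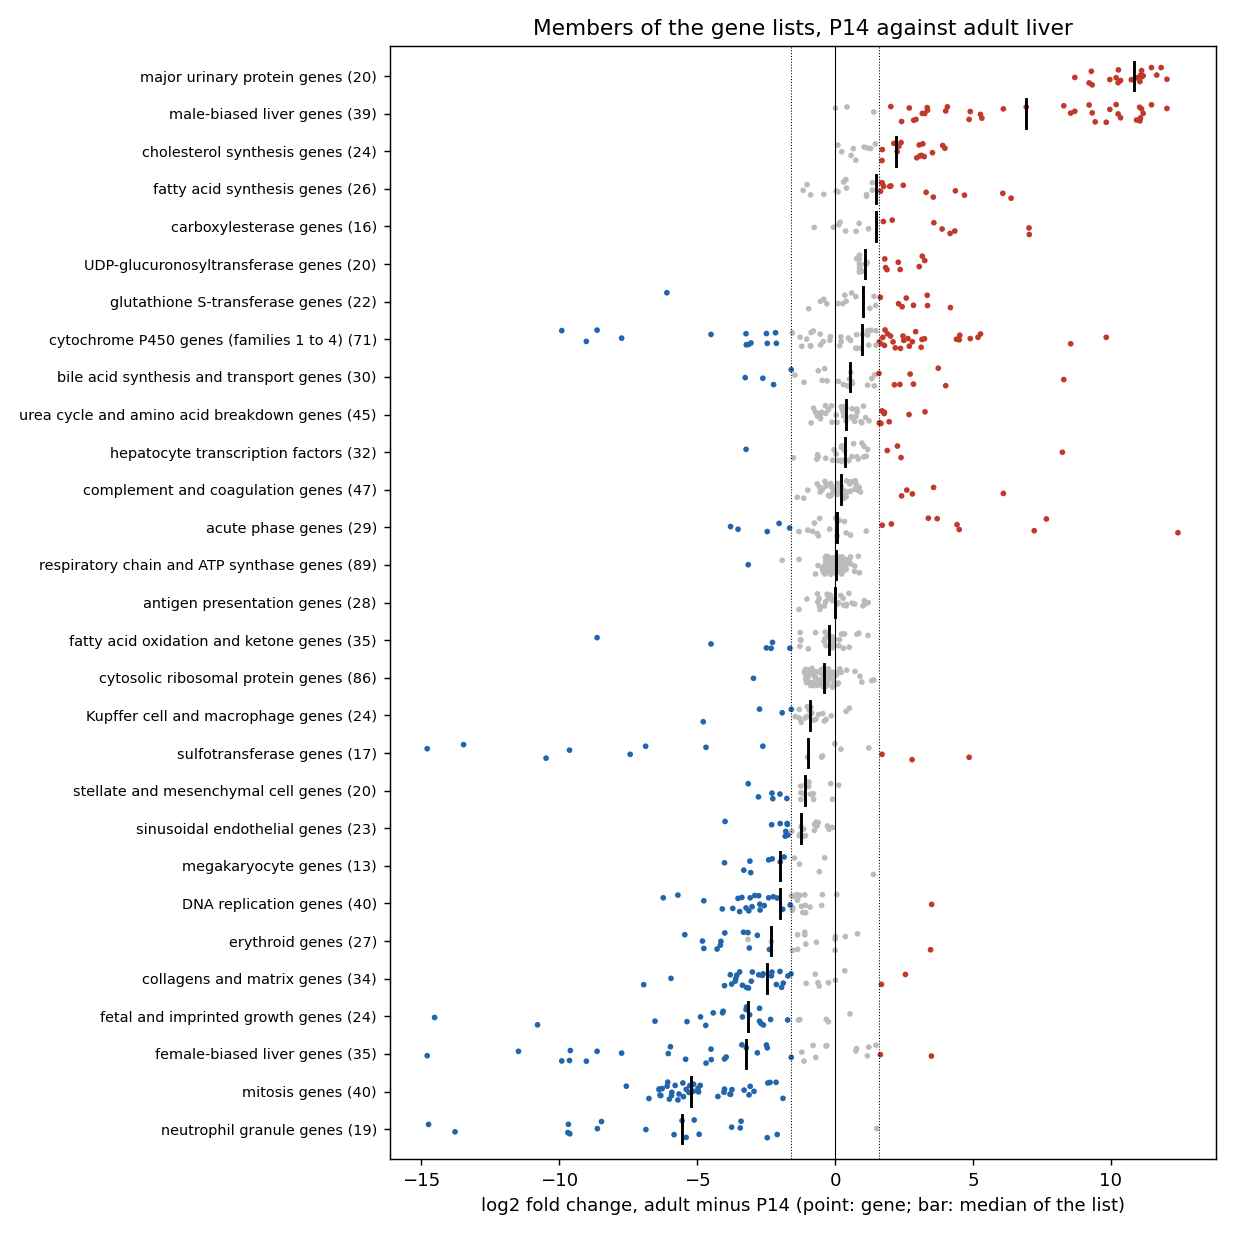
Log2 fold changes from P14 to adult (x axis, adult minus P14) of the tested members of 29 gene lists (rows, with the number of members tested). Each point is a gene, red where it rose, blue where it fell and grey otherwise, the black bar is the median of the list and the dotted lines mark 3-fold. Mitosis genes all fell, major urinary protein genes all rose, and cytochrome P450 genes lay on both sides.

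Genes of fetal growth and of dividing cells were lower in adult. Of 24 fetal and imprinted growth genes 19 fell and 0 rose, with a median log2 fold change of -3.16. Without P14 replicate 2, 16 of the 24 fell and 1 rose. Besides H19 and Igf2 the list's falls included Gpc3, a cell-surface glypican, at 56.9 and 67.5 CPM at P14 and at 1.43 and 1.58 CPM in adult (log2 fold change -5.37, SE 0.19 and adjusted p = 2.0e-07 in edgeR). Igf2bp3, a fetal RNA-binding protein, was at 33.1 and 41.9 CPM at P14 and at 1.24 and 1.29 CPM in adult. Cdkn1c and Grb10, imprinted inhibitors of growth, fell as well, with log2 fold changes of -4.06 and -3.21. Afp, the fetal counterpart of albumin, was at 103 and 181 CPM at P14 and at 4.93 and 6.03 CPM in adult, after a mean of 31437 CPM at E18. Lin28b, the fetal repressor of let-7 maturation, had 2 reads in each P14 sample and 0 in adult, which is under the floor of 3 reads per library. Igf2bp1, Hmga1, Ndn, Phlda2 and Dcn did not pass.

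All 40 mitosis genes fell, with a median log2 fold change of -5.24, and all 40 also did so without P14 replicate 2. Mki67, the proliferation antigen Ki-67, was at 53.5 and 63.1 CPM at P14 and at 0.791 and 0.723 CPM in adult (log2 fold change -6.27, SE 0.22 and adjusted p = 1.8e-07 in edgeR). Cdk1, the kinase that drives entry into mitosis, was at 38.4 and 43.2 CPM at P14 and at 1.41 and 1.24 CPM in adult (-4.95, SE 0.19 and adjusted p = 2.9e-07 in edgeR). The smallest fall among the 40 was in Kif20a, with a log2 fold change of -1.89. The sum over the list was 623 and 728 CPM at P14, 217 and 176 CPM at P28 and 44.2 and 43.3 CPM in adult, so that the P14 samples lay above both P28 samples and these above the adult ones. Ccnb1, cyclin B1, went from 265 and 334 reads to 1 read in each adult sample, a ratio of 206 with an exact 95% counting interval of 56.9 to 1708.

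Of 40 DNA replication genes 22 fell and 1 rose, with a median of -2, and 38 were lower at the false discovery rate alone. The falls were led by Mcm6, a subunit of the helicase that unwinds DNA, at 57.1 and 55.6 CPM at P14 and at 0.773 and 0.723 CPM in adult (log2 fold change -6.23, SE 0.25 and adjusted p = 3.6e-07 in edgeR), and by Uhrf1, which guides maintenance DNA methylation (-5.70). Mcm5, of the same helicase, was at 58.5 and 55.3 CPM at P14 and at 2.03 and 2.17 CPM in adult. Pcna, the sliding clamp, was at 2.64 and 2.98 CPM at P14 and at 1.03 and 0.859 CPM in adult, just under 3-fold. Mcm10, an initiation factor, went the other way, at 27.4 and 28.6 CPM at P14 and at 299 and 335 CPM in adult (3.50, SE 0.11 and adjusted p = 1.5e-07 in edgeR). Whether reads were counted by strand is not stated, so that reads from an overlapping gene cannot be told apart from those of Mcm10.

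Genes of replication and of mitosis are known to be transcribed in the cell cycle through E2F sites and through the cell cycle homology region (CHR), and the letters of these sites were looked for in the promoters of both lists. The promoters were windows of 300 bases, 250 before and 50 after each start, from RefSeq on GRCm38.p6, and 11758 of the tested genes had at least 1. Either strand was searched for 9 motifs in 7 lists, and the pairings given here were chosen after the shares had been seen. The E2F letters TTTGGCGC or TTTCCCGC occurred in 12 of 32 DNA replication genes with a promoter, 0 of 34 mitosis genes and 2.99% of all. The CHR letters TTTGAA occurred in 24 of 34 mitosis genes, 5 of 32 DNA replication genes and 15% of all. The 2 members of each list with the largest change among those that hold the letters are shown, as the 250 bases before the start on the strand of the gene, with the letters, or their reverse complement, in capitals. These promoters are shown because the genes behind them fell together from P14 to adult.
Mcm6, E2F letters in capitals, chr1:128359706-128359955, minus strand: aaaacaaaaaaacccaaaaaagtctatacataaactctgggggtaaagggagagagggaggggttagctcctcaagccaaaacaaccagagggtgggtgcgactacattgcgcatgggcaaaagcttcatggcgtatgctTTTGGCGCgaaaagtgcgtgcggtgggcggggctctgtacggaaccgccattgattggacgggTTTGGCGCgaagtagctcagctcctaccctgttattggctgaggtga
Mcm5, E2F letters in capitals, chr8:75109259-75109508, plus strand: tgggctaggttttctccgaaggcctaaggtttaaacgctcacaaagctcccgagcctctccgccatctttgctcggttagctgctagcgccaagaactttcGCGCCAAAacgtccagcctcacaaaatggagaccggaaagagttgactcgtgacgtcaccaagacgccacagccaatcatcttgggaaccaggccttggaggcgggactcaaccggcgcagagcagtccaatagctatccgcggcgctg
Mki67, CHR letters in capitals, chr7:135716380-135716629, minus strand: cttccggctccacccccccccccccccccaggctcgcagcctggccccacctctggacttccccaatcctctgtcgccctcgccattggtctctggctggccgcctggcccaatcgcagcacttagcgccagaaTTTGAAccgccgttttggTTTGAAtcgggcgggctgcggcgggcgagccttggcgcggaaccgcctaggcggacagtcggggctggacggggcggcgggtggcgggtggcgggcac
Ckap2l, CHR letters in capitals, chr2:129297213-129297462, minus strand: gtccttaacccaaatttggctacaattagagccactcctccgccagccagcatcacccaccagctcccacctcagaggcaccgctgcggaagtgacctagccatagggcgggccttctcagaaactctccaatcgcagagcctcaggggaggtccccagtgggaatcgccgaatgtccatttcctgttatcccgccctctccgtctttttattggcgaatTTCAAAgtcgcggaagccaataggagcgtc

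In Mcm6 the letters began 110 and 47 bases before the start and in Mcm5 149 bases before it. In Mki67 they began 116 and 98 bases before the start, and in Ckap2l, a protein of the mitotic spindle, 30 bases before it. Ckap2l was at 12.4 and 15 CPM at P14 and at 0.206 and 0.196 CPM in adult. A match of letters is a description of the sequence and was not tested for binding.

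Matrix genes were lower in adult as well. Of 34 collagens and matrix genes 25 fell and 2 rose, with a median log2 fold change of -2.46, and 22 fell and 2 rose without P14 replicate 2. Col3a1, of the fibrillar collagen III, was at 557 and 825 CPM at P14 and at 38.3 and 47.3 CPM in adult (log2 fold change -4.01, SE 0.21 and adjusted p = 1.3e-06 in edgeR). Eln, elastin, was at 188 and 277 CPM at P14 and at 3.52 and 3.99 CPM in adult (-5.95, SE 0.24 and adjusted p = 3.3e-07 in edgeR). Col4a1 of the basement membrane, Sparc, a collagen-binding protein, and Lox, which cross-links collagen and elastin, fell with log2 fold changes of -2.64, -3 and -3.80. Col5a3 rose from 1.15 and 1.89 CPM to 7.24 and 10.5 CPM, and P4ha2, a prolyl hydroxylase of collagen, from 3.42 and 3.59 CPM to 12.7 and 9.76 CPM. Fn1, Dcn, Lum, Bgn, Fbln1, Col15a1 and Col18a1 did not pass, with log2 fold changes from -1.05 to 0.35. P14 stood above E18 in Eln (22.2 CPM at E18), Col3a1 (232 CPM) and Sparc (188 CPM).

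Genes of the cells that line and support the sinusoids were lower in adult by less. Of 23 sinusoidal endothelial genes 8 fell (9 without P14 replicate 2) and 0 rose, and 21 were lower at the false discovery rate alone, with a median log2 fold change of -1.24. Lyve1, a hyaluronan receptor, was at 27.2 and 17.0 CPM at P14 and at 1.38 and 1.40 CPM in adult (log2 fold change -3.99, SE 0.23 and adjusted p = 1.8e-06 in edgeR). Stab2 and Kdr fell, with log2 fold changes of -2.3 and -1.81, while Clec4g, a lectin of these cells, was at 108 and 110 CPM and at 70.4 and 58.8 CPM and did not pass. Of 24 Kupffer cell and macrophage genes 4 fell (Marco, Emr1, Itgam and Cx3cr1), of which Emr1 (-1.59) did not pass under median-ratio scaling (-1.55), library size alone (-1.57) or DESeq2 (-1.55), and 20 were lower at the false discovery rate alone, with a median of -0.92. Marco, a scavenger receptor, was at 66.2 and 66.6 CPM at P14 and at 2.61 and 2.23 CPM in adult, whereas Clec4f, which is particular to Kupffer cells, was at 172 and 151 CPM and at 122 and 125 CPM. Of 20 stellate and mesenchymal cell genes 6 fell (5 without P14 replicate 2), with a median of -1.09, and Lrat and Des, of the resting stellate cell, were at 48.2 and 50.4 CPM and 11.9 and 15.4 CPM at P14 against 26 and 25.1 CPM and 7.6 and 7.17 CPM in adult. Of 15 bile duct genes 2 fell, Krt19 and Prom1, a share close to the 11.1% of all genes tested that fell. Krt19 differed between the P14 duplicates (2.46 and 10.2 CPM), and its log2 fold change was -1.87, or -0.52 without replicate 2. Of 9 skeletal muscle genes tested 5 fell, and 2 did so without P14 replicate 2, and the summed level of the list was 1.88 and 15.2 CPM at P14 and 1.77 and 2.30 CPM in adult.

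Many blood cell genes were lower in adult than at P14. Of 19 neutrophil granule genes 18 fell, with a median log2 fold change of -5.55, or -4.93 with the 5 genes without a read in adult at their bound. S100a9, an abundant neutrophil alarmin, was at 53.7 and 60.2 CPM at P14 and at 0.619 and 1.34 CPM in adult (log2 fold change -5.84, SE 0.30 and adjusted p = 1.1e-06 in edgeR). Ltf, lactoferrin, went from 1935 and 1822 reads to 0 and 3 reads. The sum over the list was 218 and 239 CPM at P14 and 19.4 and 16.4 CPM at P28, so that most of the fall lay before P28. Of 27 erythroid genes 12 fell, 1 rose (Car1, log2 fold change 3.46) and 14 did not pass. Among those that fell was Slc4a1, the anion exchanger of the red cell, at 3.56 and 4.94 CPM at P14 and at 0.241 and 0.196 CPM in adult. Those that did not pass held every globin gene of the list, and their log2 fold changes ran from -3.16 (Hba-x) to 0.81 (Alas2). Of 13 megakaryocyte genes 8 fell (7 without P14 replicate 2), of 17 B cell genes 10 fell and 1 rose (Igj, the joining chain of plasma cells), and of 30 T and NK cell genes 14 fell and 2 rose (Cd4 and Zap70). Igll1, the surrogate light chain of B cell precursors, had 84 and 87 reads at P14 and 0 and 3 in adult, a ratio of 39.3 with an exact 95% counting interval of 13.2 to 192. The sum over the B cell list was 8.6 and 14.75 CPM at E18, 22.5 and 24.1 CPM at P14 and 7.6 and 8.07 CPM in adult. The sum over the T and NK cell list was 31.1 and 33.7 CPM at E18, 49.8 and 52.4 CPM at P14 and 42.3 and 42.55 CPM in adult. Of 28 antigen presentation genes 0 passed the threshold of edgeR in either direction, 8 were higher and 7 lower at the false discovery rate alone, 7 were higher and 7 lower at an unadjusted p below 0.05, DESeq2 and limma also called 0, and their median was -0.01. Over all genes tested 4.35% rose and 11.1% fell, and interferon response genes fell at a share close to that of all genes. Of 37 interferon response genes 1 rose, Oasl1, and 4 fell (3 without P14 replicate 2).

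Many genes of lipid synthesis rose. Of 24 cholesterol synthesis genes 15 rose and 0 fell, with a median log2 fold change of 2.19. In all 24 both adult samples lay above both P14 samples, against 38.6% of all genes tested. Insig1, the sterol sensor that holds back SREBP, was at 8.31 and 8.92 CPM at P14 and at 139 and 132 CPM in adult (log2 fold change 3.98, SE 0.13 and adjusted p = 1.3e-07 in edgeR). Sqle, squalene epoxidase, was at 6.77 and 7.59 CPM at P14 and at 96.3 and 118 CPM in adult (3.90, SE 0.15 and adjusted p = 2.6e-07 in edgeR). Srebf2, the transcription factor of the pathway, was at 57.8 and 64.7 CPM at P14 and at 65.2 and 79.6 CPM in adult, and did not pass.

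The promoters of this list were searched in the same way. The letters CCAAT, read by NF-Y, occurred in 14 of the 15 cholesterol synthesis genes with a promoter, against 42.1% of all genes, and in 26 of 34 mitosis genes. They also occurred in 15 of 21 fatty acid synthesis genes and 20 of 32 DNA replication genes. In the remaining lists searched their share ran from 39.3% (male-biased genes) to 51.5% (urea cycle and amino acid breakdown genes). The letters TCACNCCAC of a sterol regulatory element occurred in 0 of these 15 windows and in 1.48% of all. The 2 members with the largest rise among those that hold the letters are shown, with CCAAT or its reverse complement in capitals, because the list rose as a whole.
Insig1, chr5:28071162-28071411, plus strand: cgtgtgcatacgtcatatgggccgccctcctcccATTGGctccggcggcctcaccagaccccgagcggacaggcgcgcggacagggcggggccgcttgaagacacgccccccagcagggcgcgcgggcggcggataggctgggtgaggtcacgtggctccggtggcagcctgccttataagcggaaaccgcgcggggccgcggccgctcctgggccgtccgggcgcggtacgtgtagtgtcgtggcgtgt
Nsdhl, chrX:72918271-72918520, plus strand: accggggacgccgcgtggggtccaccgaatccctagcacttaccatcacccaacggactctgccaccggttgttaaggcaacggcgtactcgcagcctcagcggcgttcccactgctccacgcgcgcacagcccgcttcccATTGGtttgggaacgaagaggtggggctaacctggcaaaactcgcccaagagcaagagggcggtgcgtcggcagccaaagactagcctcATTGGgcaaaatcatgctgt

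The letters began 216 bases before the start in Insig1, and 109 and 20 bases before it in Nsdhl, a demethylating enzyme of sterol synthesis that rose from 10.4 and 12 CPM to 130 and 128 CPM. Besides the motifs named, the E-box CACGTG, the HNF4 letters CAAAGTCCA, the STAT5 letters TTCNNNGAA, the HNF1 letters (GTTAAT and ATT with 1 base between) and a direct repeat of AGGTCA with 1 base between (PPRE) were searched. The STAT5 letters can overlap those of CHR. They occurred in 13.1% of all genes that rose, 7.58% of those that fell and 8.67% of all tested genes with a promoter.

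Of 26 fatty acid synthesis genes 13 rose (12 without P14 replicate 2) and 0 fell, while 4 were lower at the false discovery rate alone, with a median of 1.5. Scd1, which makes oleate from stearate, was at 42.2 and 42.0 CPM at P14 and at 3696 and 3342 CPM in adult (log2 fold change 6.38, SE 0.35 and adjusted p = 1.5e-06 in edgeR). Thrsp, an activator of lipogenesis, was at 47.0 and 40.5 CPM at P14 and at 3265 and 2645 CPM in adult (6.08, SE 0.25 and adjusted p = 4.2e-07 in edgeR). Fasn, fatty acid synthase, rose from 99.3 and 91.0 CPM to 1124 and 1115 CPM, and Acacb, whose product malonyl-CoA blocks fatty acid import into mitochondria, from 3.06 and 3.85 CPM to 77.2 and 101 CPM. Their regulators moved less. Srebf1 was at 618 and 709 CPM at P14 and at 523 and 474 CPM in adult, and Mlxipl, the carbohydrate response factor ChREBP, at 206 and 187 CPM and at 468 and 530 CPM.

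The genes of fatty acid oxidation and ketone synthesis did not mirror this rise. Of 35 tested 6 fell and 0 rose, 16 were lower and 5 higher at the false discovery rate alone, and the median was -0.22. Cpt1a, the gate of mitochondrial import, was at 563 and 542 CPM and at 279 and 286 CPM and did not pass. The 6 that fell were Cyp4a14, Cyp4a10, Pdk4, Crat, Fgf21 and Acot2, of which Cyp4a14, Cyp4a10, Pdk4 and Fgf21 are known targets of the fatty acid receptor PPARα. Cyp4a14, a fatty acid hydroxylase, was at 250 and 231 CPM at P14 and at 0.739 and 0.482 CPM in adult (log2 fold change -8.63, SE 0.20 and adjusted p = 3.9e-08 in edgeR). Fgf21, the fasting hormone, was at 8.94 and 5 CPM at P14 and at 0.911 and 1.87 CPM in adult. Ppara itself did not pass, with a log2 fold change of 0.34. Lpl, lipoprotein lipase, which takes up milk fat in the suckling liver, was at 867 and 836 CPM at P14 and at 12.7 and 14.5 CPM in adult (-5.97, SE 0.13 and adjusted p = 3.9e-08 in edgeR).

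**Figure D4:**
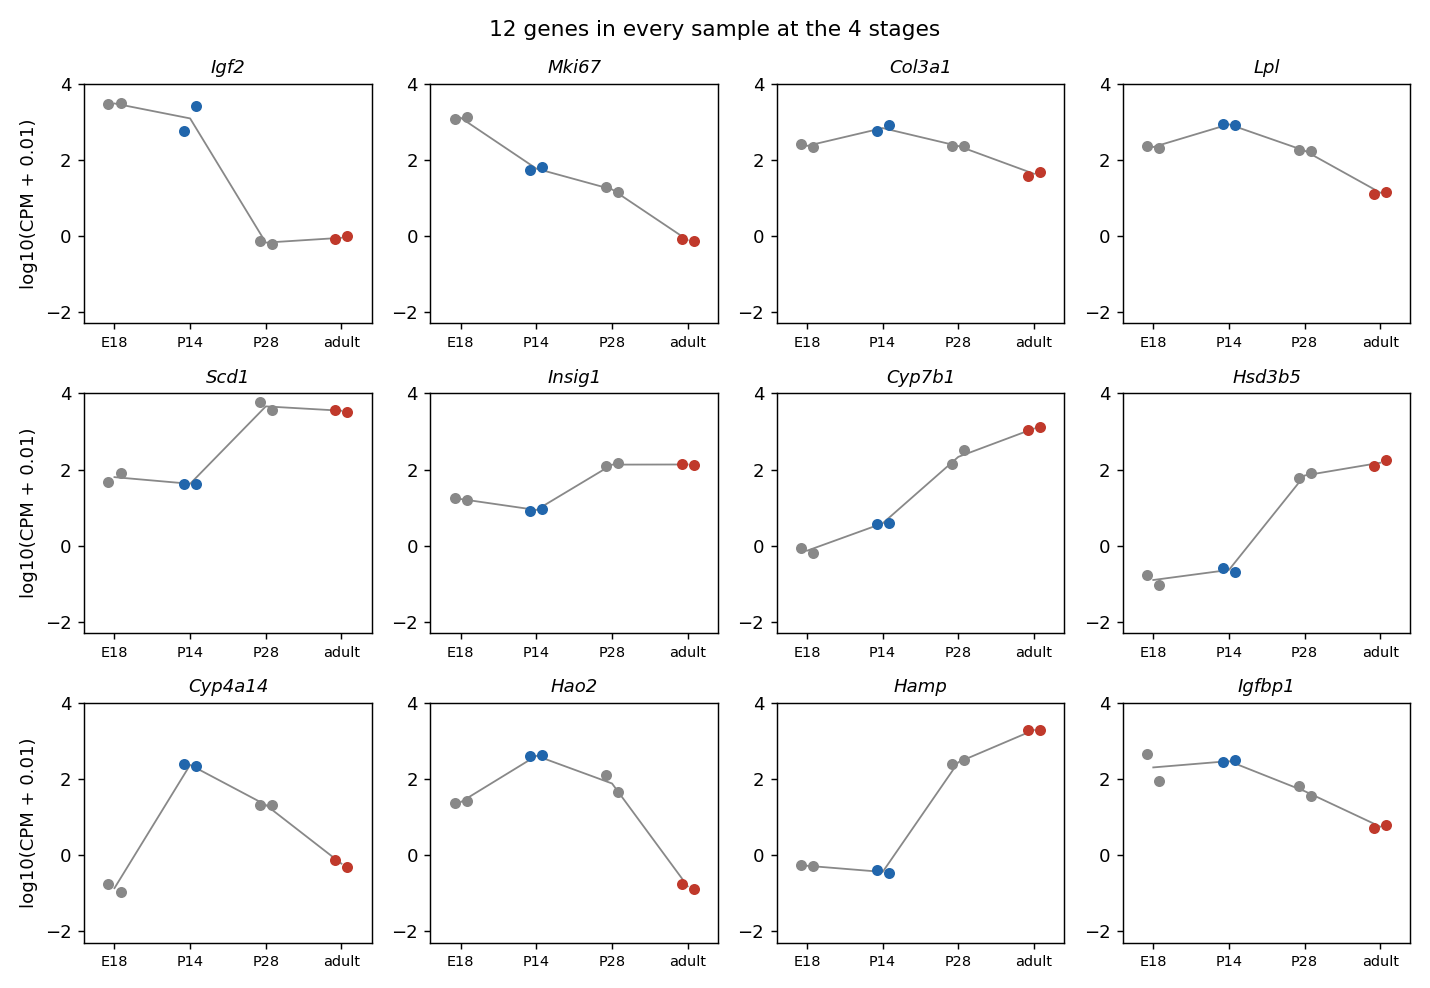
Levels of 12 genes as log10(CPM + 0.01) (y axis) at the 4 stages (x axis). Each point is a sample, blue at P14, red in adult and grey at E18 and P28, and the line joins the means of the plotted values. Scd1, Insig1, Hsd3b5 and Hamp lay near their P14 level at E18, Lpl, Cyp4a14 and Hao2 stood higher at P14 than at any other stage, and the P14 samples of Igf2 differed.

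Most sugar genes stayed under the threshold, but a larger share rose than the 4.35% of all genes tested. At the false discovery rate alone 8 of 17 gluconeogenesis genes were higher and 5 lower. Of 14 galactose and fructose genes 9 were higher and 2 lower at that rate, against 29.0% and 32.1% of all genes. Of 17 gluconeogenesis genes 3 rose and 0 fell, and the 3 were aminotransferases. Gpt2, the mitochondrial alanine aminotransferase, was at 38.8 and 35.5 CPM at P14 and at 612 and 583 CPM in adult (log2 fold change 4.01, SE 0.14 and adjusted p = 2.0e-07 in edgeR), and Gpt and Tat rose by 1.94 and 1.61 on the log2 scale. Pck1, which commits carbon to glucose, was at 3584 and 3538 CPM at P14 and at 3267 and 2719 CPM in adult, and did not pass. Of 14 galactose and fructose genes Galk1, galactokinase, which handles the galactose of milk sugar, fell from 216 and 230 CPM to 55.9 and 51.5 CPM. Slc2a5, the fructose transporter, rose from 0.894 and 0.954 CPM to 15.9 and 13 CPM, and Dak rose by 1.71 on the log2 scale.

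Of 45 urea cycle and amino acid breakdown genes 9 rose and 0 fell, with a median of 0.39. Those that rose break down aromatic amino acids and tryptophan (such as Tat, Tdo2, Kynu, Haao and Acmsd), proline and ornithine (Prodh and Oat) and methylate glycine (Gnmt). Acmsd, which diverts tryptophan carbon away from NAD, was at 7.05 and 6.72 CPM at P14 and at 78.4 and 53.5 CPM in adult (log2 fold change 3.26, SE 0.22 and adjusted p = 4.7e-06 in edgeR). Enzymes of the urea cycle proper differed by less than 3-fold. Cps1 was at 3901 and 2937 CPM at P14 and at 4329 and 3920 CPM in adult, Otc at 612 and 590 CPM and at 892 and 932 CPM, and Arg1 at 1245 and 1167 CPM and at 2853 and 2371 CPM, and none of them passed.

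Bile acid genes moved in both directions, with 8 of 30 that rose (7 without P14 replicate 2) and 4 that fell. Over all genes tested 4.35% rose and 11.1% fell, so the share of bile acid genes that fell was close to that of all genes. Cyp7b1, of the alternative pathway and of oxysterol clearance, was at 3.71 and 3.96 CPM at P14 and at 1073 and 1332 CPM in adult (log2 fold change 8.29, SE 0.43 and adjusted p = 1.2e-06 in edgeR). Cyp7a1, the rate-limiting enzyme of the classical pathway, was at 122 and 111 CPM at P14 and at 99.0 and 80.7 CPM in adult, and did not pass. Cyp27a1 and Baat, which conjugates bile acids to taurine, rose by 2.84 and 2.72 on the log2 scale. Among the transporters Slco1a1 rose from 69.2 and 75 CPM to 1091 and 1236 CPM, while its relative Slco1a4 fell from 294 and 262 CPM to 58.2 and 32.4 CPM. Ostb, a subunit of the basolateral exporter, fell from 14.9 and 16.2 CPM to 1.68 and 1.57 CPM. Over all 327 solute carrier (SLC) genes tested 26 rose and 38 fell (31 without P14 replicate 2), and the median was 0.04.

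Genes that are known to differ between male and female liver moved far. Of 39 male-biased genes 36 rose and 0 fell, with a median log2 fold change of 6.93, or 6.10 with the 7 genes without a read at P14 at their bound. Many of the 39 are major urinary protein genes, which are counted again in the family that follows. All 20 major urinary protein genes rose, and 11 of them had no read at P14, with 2.03 and 1.69 CPM in sum at P14 and 2454 and 2436 CPM in adult. These genes are near-identical copies, so that reads may be shared among them or set aside, and both single values and the sum are uncertain. Most of the sum at both stages was Mup3, at means of 1.70 CPM at P14 and 2089 CPM in adult. Hsd3b5, a ketosteroid reductase of male liver, was at 0.251 and 0.191 CPM at P14 and at 124 and 183 CPM in adult (log2 fold change 9.43, SE 0.34 and adjusted p = 2.0e-07 in edgeR). Elovl3, which elongates fatty acids, rose from 1.49 and 1.47 CPM to 147 and 216 CPM, and Egfr, the receptor of epidermal growth factor, from 56.2 and 51.5 CPM to 660 and 1151 CPM. The list's Selenbp2, Serpina1e and Igfals did not pass.

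Of 35 female-biased genes 22 fell and 2 rose, with a median of -3.22. Cyp3a16 was at 94.3 and 109 CPM at P14 and at 0.138 and 0.0753 CPM in adult (log2 fold change -9.91, SE 0.25 and adjusted p = 5.9e-08 in edgeR). Cyp2b9 fell from 103 and 110 CPM to 0.980 and 0.0602 CPM. Cux2, a female-biased transcription factor, fell from 6.21 and 10.5 CPM to 0.412 and 0.331 CPM. Cib3 and Gstt3 rose, and A1bg, which fell from 7.81 and 6.89 CPM to 0.980 and 0.452 CPM, had a mean of 120 CPM at P28. Without P14 replicate 2, the sample with Xist, 36 male-biased genes rose, and 22 female-biased genes fell and 3 rose. The adult mice are male by the study's methods and the sex of the P14 mice is not given, so that stage and sex cannot be told apart for P14 replicate 2, which stands apart in Xist and the Y-linked genes.

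Drug-metabolizing enzymes moved in both directions. Of 71 cytochrome P450 genes of families 1 to 4, 27 rose (29 without P14 replicate 2) and 13 fell, with a median of 0.99. Of the genes that rose 6 were Cyp2c and 7 were Cyp2d genes. Cyp2f2 was at 132 and 99.8 CPM at P14 and at 2404 and 2507 CPM in adult (log2 fold change 4.40, SE 0.31 and adjusted p = 6.0e-06 in edgeR), and Cyp2c29 rose from 253 and 249 CPM to 1788 and 1448 CPM. Cyp1a2, the main enzyme of caffeine breakdown, rose from 459 and 470 CPM to 1532 and 1333 CPM. The 13 that fell held 5 Cyp3a genes, 3 Cyp4a genes and Cyp2b9 and Cyp2b13, and Cyp3a11, the main Cyp3a enzyme of mouse liver, went from 195 and 194 CPM to 52.9 and 35.9 CPM. Cyp2e1, which oxidizes ethanol and acetone, was at 6402 and 5544 CPM and at 14443 and 13318 CPM, under 3-fold. The summed level of the 78 P450 genes in the files was 11745 and 10409 CPM at P14 and 28147 and 26805 CPM in adult.

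Among conjugating enzymes 8 of 20 UDP-glucuronosyltransferases rose and 0 fell, and all 20 were higher at the false discovery rate alone. Ugt2b1 rose from 216 and 197 CPM to 1889 and 2051 CPM, whereas the Ugt1a genes, which share their last exons and so their reads, had log2 fold changes from 0.78 (Ugt1a1) to 0.89 (Ugt1a5). Of 22 glutathione S-transferases 8 rose (9 without P14 replicate 2), led by Gstm6, and Mgst2 fell, from 3.49 and 5.5 CPM to 0.0688 and 0.0602 CPM. Of 16 carboxylesterases 8 rose (7 without P14 replicate 2) and 0 fell, and Ces1f went from 3.36 and 3.26 CPM to 487 and 387 CPM (log2 fold change 7.04, SE 0.24 and adjusted p = 1.7e-07 in edgeR). Sulfotransferases went the other way, with 8 of 17 that fell and 3 that rose, and 6 of the 8 were Sult2a genes, near-identical copies whose reads may not be told apart.

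Some members of the growth hormone axis differed, while others, such as Igfbp4 (-0.10) and Stat5b (-0.75 on the log2 scale), did not pass. Of 22 genes 2 rose (1 without P14 replicate 2) and 6 fell. Igfbp1, the acutely regulated carrier of insulin-like growth factors, was at 287 and 317 CPM at P14 and at 5.21 and 6.22 CPM in adult (log2 fold change -5.72, SE 0.72 and adjusted p = 0.00018 in edgeR), and Igfbp2 and Igfbp3 fell with log2 fold changes of -2.39 and -2.26. Bcl6, a repressor of female-biased genes, rose from 10.9 and 10 CPM to 64.3 and 49.3 CPM. Ghr, the receptor, was at 482 and 474 CPM and at 1083 and 1135 CPM, and Igf1 at 721 and 766 CPM and at 1032 and 1322 CPM, and neither passed.

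Of 32 hepatocyte transcription factors 4 rose, among them Onecut1, Zbtb20 and Foxa1, and 1 fell (Hnf4g), and Hnf4a was at 677 and 578 CPM at P14 and at 1000 and 991 CPM in adult. Onecut1 was at 11 and 6.05 CPM at P14 and at 29.4 and 60.2 CPM in adult, and it was not among the genes that rose without P14 replicate 2. Zbtb20, a repressor of Afp, rose from 1.80 and 1.53 CPM to 8.32 and 7.59 CPM. Splicing regulators rose and fell at shares no higher than those of all genes tested, of which 4.35% rose and 11.1% fell. Of 35 splicing regulators 1 rose, Mbnl2, from 11.2 and 11.6 CPM to 42.3 and 38 CPM, and 3 fell (2 without P14 replicate 2), Mbnl3, Nova2 and Rbm24, the last on 4 and 22 reads at P14. Esrp2, a splicing regulator of epithelial cells, was at 72.7 and 79.8 CPM at P14 and at 104 and 103 CPM in adult, a log2 fold change of 0.44 (SE 0.09 and adjusted p = 0.0023 in edgeR), so that its adult samples lay above both P14 samples by less than 3-fold. At E18 its mean was 24.9 CPM.

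Among complement and coagulation, acute phase, iron and lipoprotein genes some rose and some fell. Of 47 complement and coagulation genes 5 rose and 0 fell, and all 5 were of complement (C4a, C6, C8a, C8b and C9). C6, of the membrane attack complex, was at 9.52 and 7.48 CPM at P14 and at 524 and 639 CPM in adult (log2 fold change 6.10, SE 0.38 and adjusted p = 3.0e-06 in edgeR). Of 29 acute phase genes 9 rose and 5 fell. Orm1, orosomucoid, rose from 2.46 and 3.24 CPM to 601 and 552 CPM, while the metallothioneins Mt1 and Mt2, which bind zinc, fell with log2 fold changes of -3.79 and -3.52. Of 20 iron genes Hamp, its copy Hamp2 and Bmp6, the signal that induces hepcidin, rose, and Tfrc, the receptor of transferrin, fell from 377 and 364 CPM to 28.2 and 13.3 CPM. Of 21 apolipoprotein and lipoprotein genes Apoa4, Apoa5 and Lpin1 rose and Lpl fell.

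Few genes of the housekeeping sets passed. Of 89 respiratory chain and ATP synthase genes 1 fell, the testis form Cox6b2, with a median of 0.03 over the list. Of 76 mitochondrial ribosomal protein genes 0 passed in edgeR, 15 were higher and 17 lower at the false discovery rate alone, 14 were higher and 17 lower at an unadjusted p below 0.05, DESeq2 and limma also called 0, and the median was -0.03. Of 86 cytosolic ribosomal protein genes 1 fell, Rpl39l, on 7 and 6 reads at P14 and 1 and 0 in adult, while 46 were lower and 6 higher at the false discovery rate alone, and the median was -0.41. Without P14 replicate 2, 0 of them passed in edgeR and the median was -0.51. Cytosolic ribosomal protein genes have many near-identical copies in the genome, and their counts are uncertain. Of 18 circadian clock genes 5 rose and 2 fell, and the pair of opposite phase moved apart: Nr1d1 was at 14.8 and 12.3 CPM at P14 and at 163 and 153 CPM in adult, and Arntl at 24.6 and 29.9 CPM and at 3.94 and 6.45 CPM. The time of day at which the livers were taken is not given in the labels, so that stage and time of day cannot be told apart for these genes.

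P28, 2 weeks after P14 and past weaning, lay closer to adult than to P14 for most of these genes. On the scale of log2(CPM + 0.1), the median share of the P14-to-adult difference that was present at P28 was 78.8% for the 743 genes that rose and 66.5% for the 1898 that fell, which is a description with no test. The change at P28 was under 50% for 113 of the rising genes (15.2%) and 459 of the falling ones (24.2%). In the falling lists the medians were taken over the members that fell alone. At P28 they were 89.5% for neutrophil granule genes, 86.2% for fetal and imprinted growth genes, 50.3% for collagens and matrix genes, 42.7% for mitosis genes and 33.9% for female-biased genes. Among the rising lists, over the members that rose, they were 91.3% for cholesterol synthesis, 87.1% for fatty acid synthesis and 76.1% for male-biased genes. Hao2 fell late, from a mean of 417 CPM at P14 to 87.5 CPM at P28 and 0.146 CPM in adult. Moxd1 rose late, at 0.0467 CPM at P28, and Pfkfb3, which makes the activator of glycolysis fructose 2,6-bisphosphate, was at 11.8, 8.49 and 58.6 CPM at P14, P28 and in adult. Compared with E18, 1225 of the 1898 falling genes were higher at E18 than at P14, 524 lay between P14 and adult at E18, and 149 were below adult.

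**Figure D5:**
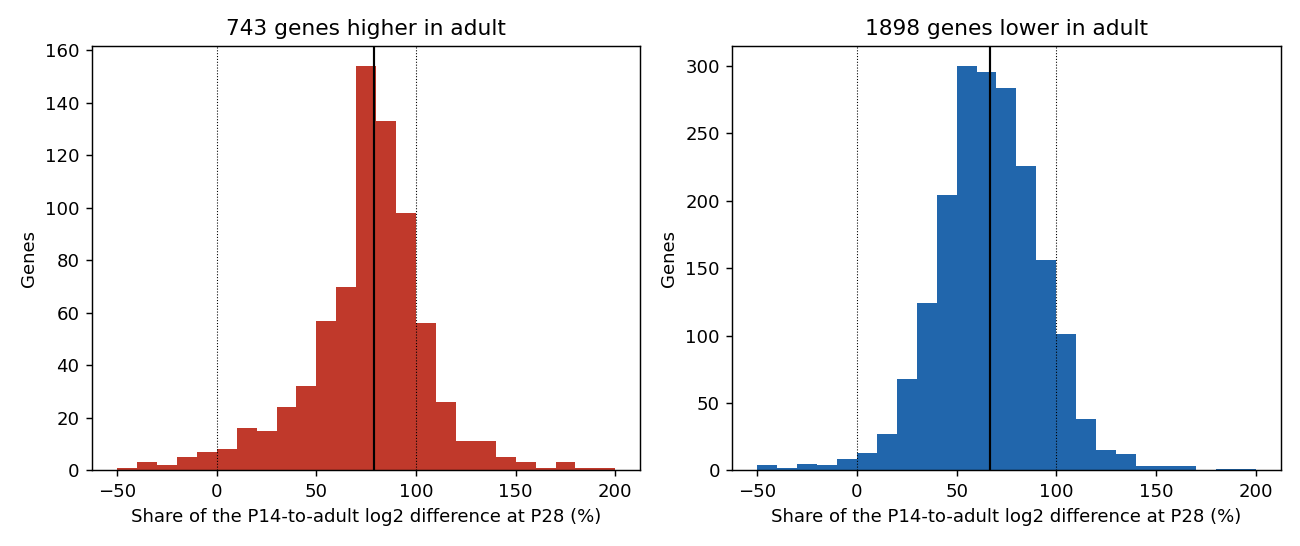
Share of the P14-to-adult difference in log2(CPM + 0.1) that was present at P28 (x axis, in percent, with values beyond the axis set to its ends) for the 743 genes that rose (left) and the 1898 that fell (right), as numbers of genes (y axis). The black line is the median, at 78.8% and 66.5%, and the dotted lines mark the levels of P14 (0%) and adult (100%).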

How the data were processed

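RNA of 8 samples of untreated FVB whole liver, 2 per stage (labels: Trizol; methods: a column kit), was poly(A)-selected and sequenced as 100-base read pairs. The authors deposited raw read counts per gene symbol and RPKM values per sample, without pooling; the submitters' processing notes name mm9, and the aligner, the counting tool and the use of strand are not given in the sources used here. Counts of all 8 samples were fitted in edgeR 4.0.16 (R 4.3.3) with filterByExpr, TMM and 1 coefficient per stage, and adult was compared with P14 (false discovery rate below 0.1, over 3-fold). The standard error is the size of the log2 fold change divided by the root of the F statistic. Bounds used 3 reads per library, and counting intervals were exact at 95%; both cover counting error only. Genes named were the 10 largest changes past both thresholds per direction at a mean of 10 CPM or more in the higher stage, the 10 largest gains and losses in CPM among genes past both thresholds, and the members of 39 gene lists and 11 symbol families with the largest change or a defining role; A1bg, Moxd1, Hao2 and Pfkfb3 at P28 and the genes of the P14 duplicates were named after their values were seen. Members and lists were chosen with earlier results of these data known. DESeq2 1.42.0 and limma 3.58.1, the latter on log2(RPKM + 0.1) of the deposited RPKM, were among the alternatives. Promoters were RefSeq windows on GRCm38.p6, matched by symbol, and no coordinate was moved between builds. Hmgcs1, Ces2h, Sptb, Ahsp, Protc and Ftl2 were not analysed here, and some genes are counted in the lists but not reported here by name.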

Additional observations from a re-analysis of the deposited data

How the results depend on the processing

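With 1 of the 4 samples left out in turn, where the remaining sample of that stage is assumed to vary like the other stages, 710 to 807 genes rose and 1601 to 2118 fell. The lists then held 16 to 18 fetal growth genes, 21 to 26 DNA replication genes, 40 mitosis genes, 22 to 25 matrix genes and 17 to 18 neutrophil genes that fell, 12 to 13 fatty acid synthesis genes, 14 to 15 cholesterol synthesis genes and 36 to 37 male-biased genes that rose, 21 to 23 female-biased genes that fell, and 27 to 29 P450 genes that rose and 13 to 16 that fell. Over 2-fold in place of 3-fold, 1486 genes rose, 3267 fell, and 35 DNA replication genes fell. With a mean of at least 1 CPM over the 4 samples, 505 genes rose, 1088 fell, and 11 neutrophil genes fell, fewer genes being tested. In limma on RPKM 550 genes rose and 1001 fell, and in DESeq2 749 and 1749; the cause was not tested. The same replicate numbers did not deviate together (r = 0.04 over 12792 genes), and with the replicate number as a block 744 genes rose and 1876 fell.

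Without P14 replicate 2, Dmbt1 turned to 8.24, Xist to 0.35, Rn45s to 2.26 and Lars2 to 2.08 on the log2 scale, Acta1 (-0.39), Krt19 (-0.52), Onecut1 (2.02), Lpin1 (1.58) and Rbm24 (-1.38) lost their call, and Phlda2 (1.76) gained one. Without P14 replicate 1, Acot2 (-1.53), Emr1 (-1.44), Apoa5 (1.53), Aqp8 (1.57), Gstt3 (1.56), Haao (1.58) and Tat (1.56) lost theirs, Pcna (-1.66) gained one, and Phlda2 turned to -0.13. Without adult replicate 1, Acot2, Emr1, Cyp1a2, Gstt3, Haao, P4ha2, Tat, Krt19, Rbm24, Acta1 and Dmbt1 lost their call, Alb (-1.72), Pcna (-1.71) and Selenbp2 (1.74) gained one, and Phlda2 turned to -0.05. Without adult replicate 2, Agt (-1.56), Apoa5 (1.48), Cd4 (1.45), Onecut1 (1.77), Acta1 and Dmbt1 lost theirs, Col15a1 turned to -0.22, Serpina1e to -0.21, Lars2 to 0.19 and Rn45s to 0.39. Lin28b and Rpl39l, on few reads, lost their call in most of these fits. Under the block Lars2 turned to 0.25 and Rn45s to 0.39, and in limma they were 0.46 and 0.58 and Serpina1e -0.02. Without a filter on low counts Col18a1 and Serpina1e were -0.02, and with the mean of 1 CPM both were -0.04. Over the fits that leave out 1 sample Col15a1 ranged from -0.22 to 0.75, Dmbt1 from -7.68 to 8.24, Lars2 from -1.01 to 2.08, Phlda2 from -0.13 to 1.76, Rn45s from -0.89 to 2.26, Serpina1e from -0.21 to 0.2 and Xist from -9.67 to 0.35. Of these Dmbt1 and Xist were called before they turned. Of 156 called genes named, 133 kept their call under every alternative that tested them.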

Other observations

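Some genes called between P14 and adult had their highest or lowest level at P28. Aqp8, a water channel, was at a mean of 32.8 CPM at P14, 190.3 CPM at P28 and 111 CPM in adult (not called without P14 replicate 1), and Bbc3, a regulator of cell death, at 3.06, 21.7 and 12 CPM. Derl3, of protein quality control in the endoplasmic reticulum, was at 1.26, 29.9 and 14.6 CPM. In all, 118 of the 743 genes that rose were above their adult level at P28, and 159 of the 1898 that fell were below it. Serpine2, an inhibitor of thrombin, moved away from its adult level first, at 6.04 CPM at P14, 2.93 CPM at P28 and 38.4 CPM in adult, as did 18 of the rising genes and 23 of the falling ones. Abcd2, a peroxisomal transporter of very long fatty acids, kept much of its P14 level, at 111, 45.4 and 2.60 CPM. Differences to P28 are values with no test.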
